A study of Danio rerio with 4 samples.

Results

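Histone-modifying enzymes are the subject here: the genes for histone lysine methyltransferases, histone lysine demethylases and histone deacetylases (HDACs) in injured ventricles of *cd74a; cd74b* mutant and wild-type zebrafish. They were chosen by name, as every gene of the deposited table whose symbol begins with kdm or kmt and a digit, setd, ezh, suv39, ehmt, prdm, hdac, nsd and a digit, or dot1l, which gave 76 of 20984 genes. Of these, 74 reached a mean of 10 normalized counts over the 4 ventricles and were tested, among 16065 genes tested in all. The name rule also takes in genes of the prdm group, most of which act as DNA-binding transcription factors, and a few setd genes whose known substrates are not histones. RNA of single ventricles was sequenced in bulk after cryoinjury, a freezing lesion that zebrafish repair by regeneration. The *cd74a; cd74b* mutants (2 ventricles) carried small CRISPR-Cas9 deletions in both paralogs of the MHC class II invariant chain gene, the alleles bns454 and bns456, and the wild types (2 ventricles) carried neither. All fish were of the AB strain and received the same injury. By the paper's methods, wild-type and double mutant siblings were crossed separately to double heterozygotes, and the progeny were used. Genotype and parentage therefore cannot be told apart. The fish were 3 to 12 months old, and each genotype had 1 female and 1 male, although the labels do not say which library is which. The collection is placed 5 days after cryoinjury by the paper and 7 days after it by the design text of the series.

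Lysine methyltransferases write methyl groups on histone tails, demethylases remove them, and HDACs remove acetyl groups. Methylation of H3K4 (lysine 4 of histone H3), H3K36 and H3K79 is found at active genes. Methylation of H3K9 and H3K27 and trimethylation of H4K20 go with silenced chromatin. In the heart, these enzymes are known for setting the gene programs of cardiomyocytes and of inflammatory cells, and zebrafish keep duplicate copies of many of them, named with a and b.

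The values are normalized counts, that is, reads per gene that the authors scaled with 1 size factor for each library and then rounded. Totals lay between 4123819 and 4382529 per ventricle. The 10 highest genes of each ventricle held between 0.956% and 1.18% of its total. Whether the values of strongly expressed genes are proportional to their RNA was not tested. Genes were compared with limma on the log2(normalized count + 1) scale, on which changes of weakly expressed genes are understated, and a gene was called at a Benjamini-Hochberg adjusted p-value under 0.05 over all tested genes together with a log2 fold change of 0.59 or more in either direction. For 1 gene, 2 ventricles against 2 cannot give a p-value under 0.333 in an exact permutation test, so each call rests on variance information that limma shares across genes. The edited genes followed the labels: *cd74b* stood at 131 and 117 normalized counts in the mutants, against 622 and 678 in the wild types, and *cd74a* had 408 and 401, against 837 and 913. Since whole ventricles were sequenced, fewer cells of a type and less RNA per cell cannot be told apart in any of the differences below. Nor were macrophages equally represented by their markers. The summed normalized counts of 8 macrophage genes were 3648 and 3676 in the mutants and 6200 and 5495 in the wild types. All 8 had lower values in each mutant than in either wild type, an order found in 29.4% of all tested genes. The sums of the replication and mitosis genes were 4927 and 4211 in the mutants and 9779 and 5402 in the wild types. The first wild type thus stood apart, and the second lay nearer to the mutants. Limma called 0 of these 16 genes, with 7 at an unadjusted p-value under 0.05, against 4654 of all 16065 tested genes. Even so, 12 of the 16 were lower in each mutant than in either wild type. The sums for 7 endocardial and endothelial genes, at 7219 and 7098 in the mutants and 7048 and 6925 in the wild types, lay much closer together. These sums hide differences in single genes. Of the 7, 1 was called higher (14.3%, against 2.70% of all tested genes). Both mutants lay above both wild types in 3 (42.9%, against 30.5%) and below them in 2 (28.6%, against 29.4%). The part of these cell markers in the results for histone-modifying genes was not tested.

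Of the 74 tested genes, 12 were called lower in mutants (16.2%, against 7.44% of all tested genes) and 1 was called higher (1.35%, against 2.70%). The lower genes included *dot1l*, *hdac4*, *hdac5*, *kdm6bb*, *nsd3*, *kdm4aa*, *kmt2a*, *setd5*, *kmt2d*, *kmt5c* and *kmt2ba*, and the higher gene was *kmt2e*. The other 61 genes were not called, and the median log2 fold change of the 74 genes was -0.08 (quartiles -0.55 and 0.20), against 0.03 over all tested genes. Both mutants lay below both wild types in 27 of the 74 genes (36.5%, against 29.4% of all tested genes) and above them in 16 (21.6%, against 30.5%). Summed over all 76 genes, the normalized counts were 21190 and 21239 in the mutants and 23452 and 22838 in the wild types. Summed over the 12 lower genes alone, they were 1186 and 1000 in the mutants and 2960 and 3736 in the wild types. The direction of this last sum was fixed in advance, since the 12 genes were picked by these same values. In the main fit an unadjusted limma p-value under 0.05 was found for 26 of the 74 genes, against 4654 of all 16065. The count of lower genes was 6 when limma was run without a mean-variance trend. No gene of either direction passed the adjusted threshold without the filter on low values or when any ventricle was left out, and this held for the whole table. An unadjusted limma p-value under 0.05 was found for 15 to 26 of the 74 genes with a ventricle left out, against 2148 to 3323 of all 16065, and for 28 of 76 without the filter, against 5015 of all 20984.

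**Figure D1:**
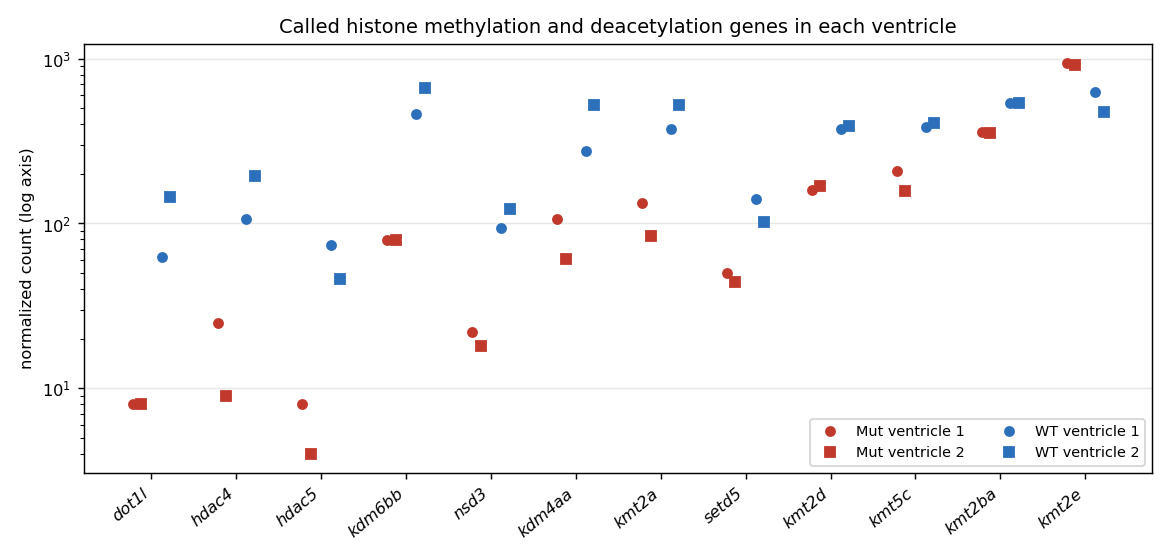
Normalized count (vertical log axis) of called genes in each ventricle, with mutants in red to the left of wild types in blue, circles for ventricle 1 and squares for ventricle 2 of each genotype. The lower genes shown have both mutants below both wild types, from *dot1l* with 8 and 8 in the mutants to *kmt2ba* with 361 and 352, and *kmt2e* alone has both mutants above both wild types.

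The largest decrease was that of *dot1l*, on chromosome 22 from 20782915 to 20838011 (minus strand, all coordinates in danRer11), which encodes the enzyme that methylates H3K79 and which in mice is needed for normal cardiomyocyte function. It had 8 normalized counts in each of both mutants, against 63 and 145 in the wild types. The wild types differed from each other by more than the mutants did, but the groups were far apart, and the log2 fold change was -3.42 ± 0.50 (SE, adjusted p-value 0.012 by limma). With single ventricles left out the log2 fold change ran from -4.02 to -2.83. It was the only gene of the group assigned to H3K79.

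Of 9 H3K4 methyltransferase genes, 3 were called lower (33.3%, against 7.44% of all tested genes) and 1 was called higher (11.1%, against 2.70%). This group comprises the kmt2 genes, which encode large enzymes that methylate H3K4 at promoters and enhancers within COMPASS complexes, and the setd1 genes of the general H3K4 trimethylation machinery. *kmt2a* (23382199 to 23420170 on chromosome 15), the counterpart of the leukemia gene MLL, had 134 and 84 normalized counts in the mutants, against 375 and 524 in the wild types, which gave -2.05 ± 0.28 (SE) as log2 fold change at a limma adjusted p-value of 0.011. The *kmt2a* call was lost without the mean-variance trend. *kmt2d* (27756984 to 27793877 on chromosome 23), an enhancer methyltransferase required for heart development in mice, had 160 and 168 in the mutants, against 373 and 390 in the wild types. The ventricles of each genotype were close together for *kmt2d*, and the log2 fold change came to -1.21 ± 0.17 (SE, adjusted p-value 0.011 by limma). *kmt2ba* (9231766 to 9275694 on chromosome 19) had 361 and 352 in the mutants and 540 in each of both wild types, and its log2 fold change, -0.60 ± 0.14 (SE, adjusted p-value 0.044 by limma), lay just past the limit of 0.59. Its call was lost when the replicate number was used as a block, when values were corrected for gene span and without the mean-variance trend.

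The other 3 genes of this kind, *kmt2bb*, *kmt2ca* and *kmt2cb*, were not called but also had both mutants below both wild types. *kmt2bb* had 420 and 385 normalized counts in the mutants, against 522 and 590 in the wild types. *kmt2ca* had 327 and 288, against 413 and 494, and *kmt2cb* had 298 and 241, against 375 and 376. Their log2 fold changes lay between -0.56 and -0.46, with limma adjusted p-values of 0.080 for *kmt2ca*, 0.096 for *kmt2bb* and 0.12 for *kmt2cb*. Both mutants thus lay below both wild types in 6 of the 7 kmt2 genes, against 29.4% of all tested genes, and above them in *kmt2e*. The summed normalized counts of the 6 were 1700 and 1518 in the mutants and 2598 and 2914 in the wild types. These 6 leave out *kmt2e*, so the direction of their sum was fixed by the choice of genes.

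*kmt2e* (22424451 to 22472653 on chromosome 4) went the other way. It encodes the most divergent protein of the group, which binds methylated H3K4 through a PHD finger and for which no robust methyltransferase activity is known. It had 936 and 918 normalized counts in the mutants, against 628 and 472 in the wild types, which gave 0.77 ± 0.17 (SE) as log2 fold change at a limma adjusted p-value of 0.036. The ratio of *kmt2e* to *kmt2d* within a ventricle was 5.85 and 5.46 in the mutants and 1.68 and 1.21 in the wild types. It does not depend on how libraries were scaled. Both genes were called, in opposite directions, so the separation of this ratio was fixed by their choice. The *kmt2e* call was lost with a block for the replicate number and without the mean-variance trend. The setd1 genes, which encode the main H3K4 trimethylating enzymes, had overlapping groups: *setd1a* had 677 and 587 in the mutants, against 616 and 412 in the wild types, and *setd1ba* had 296 in each of both mutants, against 306 and 262.

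**Figure D2:**
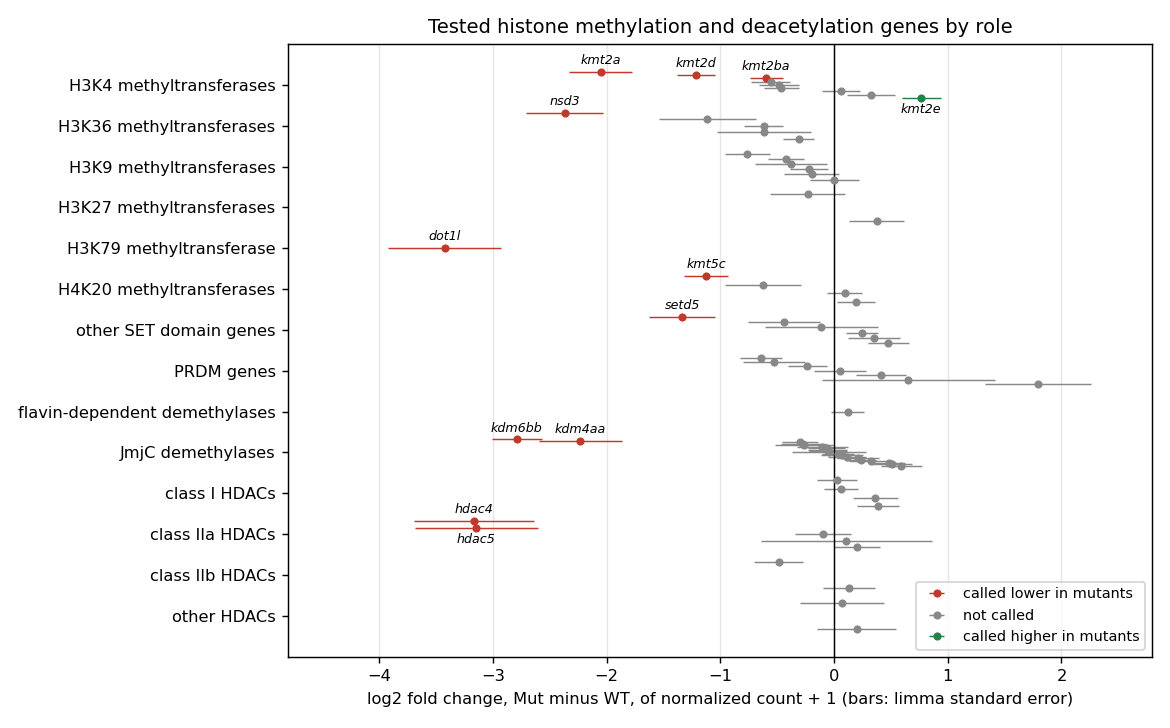
Log2 fold change (mutants minus wild types, horizontal axis, of normalized count + 1) of tested genes of the group, arranged by role from top to bottom, with bars for limma's standard error. Red points were called lower, the green point is *kmt2e*, called higher, and the 61 grey points were not called. Most grey points lie near 0, and the uncalled gene farthest to the right is *prdm1a* at 1.80.

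All 5 H3K36 methyltransferase genes had negative log2 fold changes, from -2.37 to -0.31, as had 7674 of all 16065 tested genes. Of the 5, 1 was called lower (20%, against 7.44% of all tested genes). H3K36 methylation is laid down along transcribed genes. *nsd3* (20543279 to 20588889 on chromosome 10), which encodes a mono- and dimethylating enzyme, had 22 and 18 normalized counts in the mutants, against 94 and 122 in the wild types, which gave -2.37 ± 0.34 (SE) as log2 fold change at a limma adjusted p-value of 0.012. *nsd1a* had 182 and 172 in the mutants, against 273 and 272 in the wild types, a separation with little spread that did not pass the threshold (log2 fold change -0.62, limma adjusted p-value 0.063) and did pass after upper quartile scaling or cyclic loess normalization. Its copy *nsd1b* had 19 and 14, against 37 and 36. *setd2*, the enzyme responsible for H3K36 trimethylation, had 526 and 552 in the mutants, against 672 and 667 in the wild types (log2 fold change -0.31, limma adjusted p-value 0.19).

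*nsd2* showed a different pattern, in which the first wild type stood apart from the other ventricles. It had 190 and 156 normalized counts in the mutants, against 434 and 161 in the wild types, and its log2 fold change of -0.62 (95% interval -1.59 to 0.36) was 0.10 with that wild type left out. The same ventricle was highest for *ezh2* (135 and 142 in the mutants, 232 and 114 in the wild types), for *kmt5ab* (83 and 85 in the mutants, 181 and 93 in the wild types) and for *suv39h1b* (94 and 76 in the mutants, 144 and 84 in the wild types). It was also highest for the proliferation marker *mki67*, with 482 and 429 in the mutants and 1504 and 684 in the wild types. None of these 4 histone methyltransferase genes was called, and the part of dividing cells in their values was not tested.

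None of the 6 genes for H3K9 methyltransferases was called by limma. Of the 6, 2 had an unadjusted limma p-value under 0.05, against 4654 of all 16065 tested genes. Negative log2 fold changes were found in 5 of them and in 7674 of all 16065 tested genes. H3K9 methyltransferases mark heterochromatin and silenced genes. *ehmt1a*, one of the genes for the GLP enzyme that dimethylates H3K9 together with G9a, came nearest, with 184 and 147 normalized counts in the mutants, against 296 and 264 in the wild types (log2 fold change -0.76 ± 0.20 SE, adjusted p-value 0.052 by limma). It passed the threshold under 8 of the other settings tried. Its copy *ehmt1b* had 268 and 278 in the mutants, against 377 and 355 in the wild types, and *ehmt2*, which encodes G9a, had 101 in each of both mutants, against 133 and 101. The genes *setdb1a* and *setdb1b*, for enzymes that trimethylate H3K9 at repeats, had log2 fold changes of -0.22 (95% interval -0.61 to 0.18) and 0.00 (95% interval -0.49 to 0.50).

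The H3K27 methyltransferases are the catalytic subunits of Polycomb repressive complex 2, *ezh1* in resting and *ezh2* mainly in dividing cells. *ezh1* had 516 and 413 normalized counts in the mutants, against 282 and 449 in the wild types, with overlapping groups and a log2 fold change of 0.37 (95% interval -0.19 to 0.94). For *ezh2* the log2 fold change was -0.23 (95% interval -1.0 to 0.54), and its sign turned with the first wild type left out.

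Of 4 H4K20 methyltransferase genes 1, *kmt5c*, was called lower in mutants (25%, against 7.44% of all tested genes). Its product trimethylates H4K20 in heterochromatin, *kmt5b* is a related gene, and *kmt5aa* and *kmt5ab* encode the monomethylating enzyme. *kmt5c* (30868326 to 30888415 on chromosome 3) had 209 and 157 normalized counts in the mutants, against 385 and 407 in the wild types, which gave -1.12 ± 0.19 (SE) as log2 fold change at a limma adjusted p-value of 0.018. Its call was lost without the mean-variance trend. *kmt5aa* had 381 and 480 in the mutants, against 381 and 367 in the wild types, and was not called. *kmt5b* had 401 and 403 in the mutants, against 358 and 396 in the wild types. The ratio of *kmt5c* to *kmt5b* was 0.521 and 0.390 in the mutants and 1.08 and 1.03 in the wild types. Both mutants lay below for *kmt5c* and above for *kmt5b*, so this ratio had to separate.

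Of 6 other SET domain genes 1 was called lower (16.7%, against 7.44% of all tested genes). Both mutants lay above both wild types in 3 of the 6 (50%, against 30.5%) and below them in 2 (33.3%, against 29.4%). The lower gene was *setd5* (21809633 to 21830477 on chromosome 6), with 50 and 44 normalized counts in the mutants, against 141 and 102 in the wild types. Its log2 fold change was -1.34 ± 0.29 (SE, adjusted p-value 0.031 by limma). Setd5 has been linked in mice to HDAC3 corepressor complexes, and its own catalytic activity is debated. Its call was lost with the replicate block and without the mean-variance trend. *setd7*, which encodes an H3K4 monomethylating enzyme with many other substrates, had 287 and 305 in the mutants, against 193 and 233 in the wild types (log2 fold change 0.48, limma adjusted p-value 0.13). *setd3*, whose product methylates actin, had 640 and 721, against 570 and 575. *setd6*, whose product methylates the NF-κB subunit RelA in mammals, had 57 and 44, against 78 and 60, and neither was called.

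Of the 10 prdm genes, 8 were tested. *prdm1a*, the counterpart of Blimp-1, a repressor that directs B and T lymphocyte differentiation in mammals, had 33 and 38 normalized counts in the mutants, against 10 and 9 in the wild types. For T cell markers the summed normalized counts were 112 and 101 in the mutants and 226 and 346 in the wild types. Much of this sum was *cd4-1*, which was called lower (21 and 19 in the mutants, 171 and 162 in the wild types). The log2 fold changes of 4 of the 6 T cell genes tested were positive, and the median of the 6 was 0.15. For each of these 4 the first wild type was the lowest ventricle and the second the highest, with standard errors of 0.67 to 1.05. Their mean normalized counts were not higher in the mutants, as for *cd28* with 11 and 9, against 2 and 27 in the wild types. The sums for B cell markers were 15 and 17 in the mutants and 11 and 131 in the wild types. The part of these cells in the values of *prdm1a* was not tested. Its difference was the largest positive log2 fold change of the 74 genes, at 1.80 (standard error 0.47), and its limma adjusted p-value of 0.053 lay just over the threshold, which it passed under 4 of the other settings tried. Its copy *prdm1b* had 1 and 0 in the mutants, against 9 and 4 in the wild types, and *prdm2a* had 9 and 6, against 2 and 18. These last 2 genes had means of 3.5 and 8.75 and were not tested, while *prdm8b*, just inside the filter with a mean of 11.5, had 17 and 10 in the mutants and 4 and 15 in the wild types. *prdm2b*, the member with the highest mean here, had 428 and 472 in the mutants, against 595 and 470 in the wild types. *prdm11* (175 and 153, against 252 and 260) and *prdm10* (104 and 72, against 137 and 114) had both mutants below both wild types without being called.

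Of 20 demethylase genes 2 were called, both lower in mutants, a share of 10% against 7.44% of all tested genes. *kdm6bb* (22724059 to 22760659 on chromosome 10) encodes a counterpart of KDM6B, also known as JMJD3, which removes H3K27 methylation and in mammals is induced in inflammatory macrophages. It had 79 normalized counts in each of both mutants, against 460 and 662 in the wild types. Its log2 fold change of -2.79 had a standard error of 0.22, and its limma adjusted p-value of 0.0045 was the smallest among the 74 genes. *kdm4aa* (3280939 to 3319142 on chromosome 6) encodes a demethylase of H3K9 and H3K36 whose mammalian counterpart promotes cardiac hypertrophy in mice. It had 106 and 61 in the mutants, against 277 and 525 in the wild types (log2 fold change -2.23 ± 0.37 SE, adjusted p-value 0.016 by limma). The groups did not overlap, but the wild types differed widely from each other, and the call was lost without the mean-variance trend.

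The duplicate copies of both genes were not called. *kdm6ba* had 588 and 485 normalized counts in the mutants, against 675 and 642 in the wild types, a log2 fold change of -0.30 (95% interval -0.67 to 0.07). *kdm4ab* had 288 and 297 in the mutants, against 222 and 287 in the wild types, a log2 fold change of 0.21 (95% interval -0.23 to 0.65). Within a ventricle, the ratio of *kdm6bb* to *kdm6ba* was 0.134 and 0.163 in the mutants and 0.681 and 1.03 in the wild types, and that of *kdm4aa* to *kdm4ab* was 0.368 and 0.205 in the mutants and 1.25 and 1.83 in the wild types. These ratios did not overlap between genotypes, but with 2 ventricles each an exact permutation test cannot give a p-value under 0.333. *kdm6bb* and *kdm4aa* were called lower on these same values, so the ratios give no separate support. For the pairs of kmt2 copies the ratios lay closer together. The ratio of *kmt2ba* to *kmt2bb* was 0.860 and 0.914 in the mutants and 1.03 and 0.915 in the wild types. That of *kmt2ca* to *kmt2cb* was 1.1 and 1.2 in the mutants and 1.1 and 1.31 in the wild types. Some pairs of uncalled copies had lower ratios in both mutants, a direction that depends on which copy is put on top. For *kmt5ab* over *kmt5aa* they were 0.218 and 0.177, against 0.475 and 0.253 in the wild types. Both mutants lay below for *kmt5ab*, and neither lay below a wild type for *kmt5aa*, so this ratio had to separate. *nsd1b* over *nsd1a* gave 0.104 and 0.0814, against 0.136 and 0.132. *ehmt1a* over *ehmt1b* gave 0.687 and 0.529, against 0.785 and 0.744. Both mutants were higher for *kdm5bb* over *kdm5ba*, with 0.644 and 0.717, against 0.492 and 0.643. *kdm2ab* over *kdm2aa* overlapped. How often such ratios separate among other pairs of genes was not tested. Reads that aligned to several regions were excluded by the authors, so stretches identical in 2 copies were not counted for either.

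**Figure D3:**
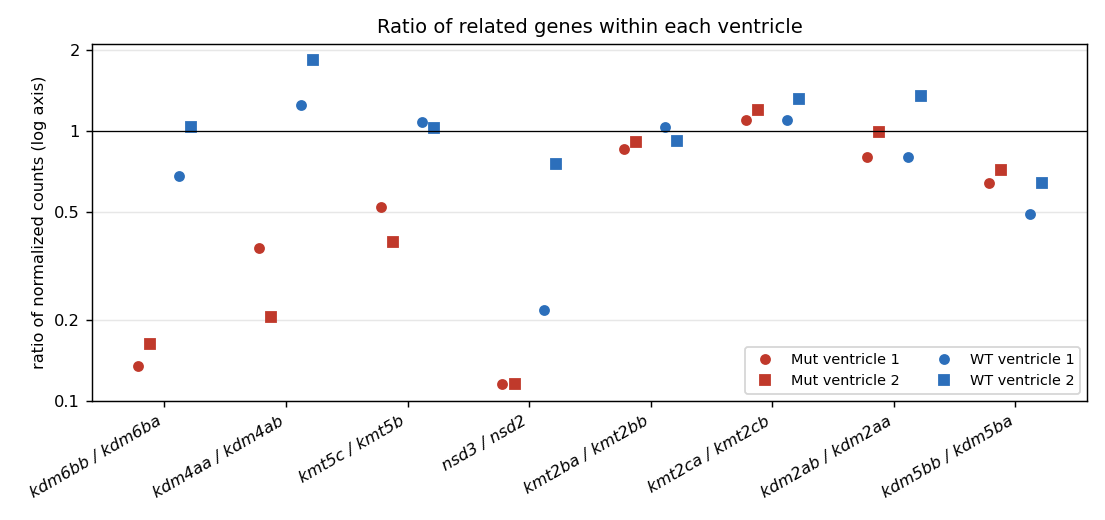
Ratio of the normalized counts of 2 related genes within each ventricle (vertical log axis), with mutants in red to the left of wild types in blue. For *kdm6bb* over *kdm6ba*, *kdm4aa* over *kdm4ab* and *kmt5c* over *kmt5b* both mutants lie clearly below both wild types, for *nsd3* over *nsd2* the wild types spread widely, and for the 4 pairs on the right the genotypes lie close together or overlap.

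The remaining 18 demethylase genes were not called. Both mutants lay above both wild types in 6 of the 20 demethylase genes, a share near the 30.5% of all tested genes. *kdm4b* had 787 and 813 normalized counts in the mutants, against 596 and 550 in the wild types (log2 fold change 0.48, limma adjusted p-value 0.069). *kdm6al*, a relative of the H3K27 demethylase gene *kdm6a*, had 390 and 361, against 277 and 223 (log2 fold change 0.59, limma adjusted p-value 0.076). After correction for gene span both of these passed the threshold. *kdm5ba*, which encodes an H3K4 demethylase, had 1018 and 1088 in the mutants, against 903 and 888 in the wild types (log2 fold change 0.23). Its copy *kdm5bb* had a log2 fold change of 0.51, and the related *kdm5c* had one of 0.03 (95% interval -0.30 to 0.37). *kdm1a*, which encodes the flavin-dependent demethylase LSD1, had 596 and 616 in the mutants, against 599 and 520 in the wild types. The summed normalized counts of all 20 demethylase genes were 8460 and 8601 in the mutants and 8506 and 8847 in the wild types.

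Of the 13 HDAC genes, *hdac4* and *hdac5* were lower in mutants (15.4%, against 7.44% of all tested genes). None was called higher, against 2.70% of all tested genes. Both *hdac4* and *hdac5* encode class IIa HDACs. These carry signals from the cytoplasm to the nucleus, bind Mef2 transcription factors and restrain cardiac growth genes in mice. *hdac4* (45884031 to 46276626 on chromosome 9) had 25 and 9 normalized counts in the mutants, against 107 and 193 in the wild types, which gave -3.17 ± 0.52 (SE) as log2 fold change at a limma adjusted p-value of 0.017. *hdac5* (22905341 to 22976456 on chromosome 3) had 8 and 4 in the mutants, against 74 and 46 in the wild types, which gave -3.15 ± 0.54 (SE) as log2 fold change at a limma adjusted p-value of 0.017. The groups were far apart for both genes, although the mutants differed from each other in *hdac4*. The *hdac4* call was lost without the mean-variance trend, and its log2 fold change ran from -3.86 to -2.48 with single ventricles left out.

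The other 3 class IIa genes were not called. *hdac7a*, best known from blood vessels in mice, had 161 and 159 normalized counts in the mutants, against 149 and 129 in the wild types (95% interval of the log2 fold change -0.27 to 0.68). *hdac9b* had 456 and 609, against 707 and 451 (95% interval -0.67 to 0.47), and *hdac7b* had 24 and 17, against 8 and 42, with a 95% interval from -1.66 to 1.88 at this low level. The ratio of *hdac4* to *hdac7a* was 0.155 and 0.0566 in the mutants and 0.718 and 1.5 in the wild types. Both mutants lay below for *hdac4* and above for *hdac7a*, so this separation was fixed by the choice of genes.

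None of the 4 rows of class I HDAC genes, whose products form the core of nuclear corepressor complexes, was called by limma. An unadjusted limma p-value under 0.05 was found for 0 of the 4, against 4654 of all 16065 tested genes. *hdac1* had 780 and 909 normalized counts in the mutants, against 844 and 769 in the wild types, with a log2 fold change of 0.06. *hdac3* had 279 and 335, against 291 and 310 (95% interval of the log2 fold change -0.38 to 0.43). *hdac8* is listed on 2 adjacent rows of chromosome 7 on the same strand, from 51656099 to 51710015 and from 51710354 to 51749895, with log2 fold changes of 0.36 and 0.38 and neither called. The class IIb gene *hdac10* had 113 and 134 in the mutants, against 188 and 159 in the wild types (log2 fold change -0.49, limma adjusted p-value 0.19), and *hdac6*, which encodes the tubulin deacetylase, had 269 and 252, against 293 and 192. *hdac12* had 47 in each of both mutants, against 49 and 34, and *hdac11* had a log2 fold change of 0.07, neither of them called.

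The position and length of the genes were not used in choosing them, and their level was used only in the filter at a mean of 10. The 13 called genes lay on 9 chromosomes, and none was on chromosome 14 or 21, which carry the edited *cd74a* and *cd74b*. Of the uncalled genes there, *nsd1a*, *nsd1b* and *ehmt1b* had both mutants below both wild types. *setd7* had both above, and *kdm2ab*, *kdm3b* and *hdac3* overlapped. The nearest to an edited gene was *nsd1b*, 3892 kb from *cd74b*. Linkage to the edited genes was not tested. The closest called pair, *kdm6bb* and *nsd3* on chromosome 10, was 2135 kb apart. The genes of the group were long, with a median span from start to end of 36.3 kb, against 17.1 kb for all tested genes, and calls of lower genes were more frequent among long genes in the whole table. Among all tested genes 4.91% of those spanning 10 to 20 kb were called lower, against 9.07% of those of 20 to 40 kb, 13% of those of 40 to 80 kb and 14.7% of those of 80 kb or more. In the same classes of span, 0 of 11, 6 of 30, 4 of 17 and 2 of 9 histone-modifying genes were called lower. With log2 values corrected for a smooth trend on gene span, 12 genes of the group were called lower, with *ehmt1a* gained and *kmt2ba* lost, and 3 were called higher, against 1294 lower and 571 higher among all tested genes. The median of the group was then -0.01. Genes with low values were called lower more often too in the whole table. The median level of the group was higher than that of all tested genes, at 269.6 normalized counts against 153. In classes of increasing mean, 2 of 10 genes of the group were called lower at 10 to 50, 4 of 6 at 50 to 100, 0 of 13 at 100 to 200, 5 of 25 at 200 to 400, 1 of 16 at 400 to 800 and 0 of 4 at 800 or more. The shares over all tested genes in these classes were 10.1%, 12.9%, 7.67%, 5.11%, 2.50% and 3.27%. All classes named here with fewer than 20 genes of the group are thin, and the part of gene span and level in the result was not tested further.

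**Figure D4:**
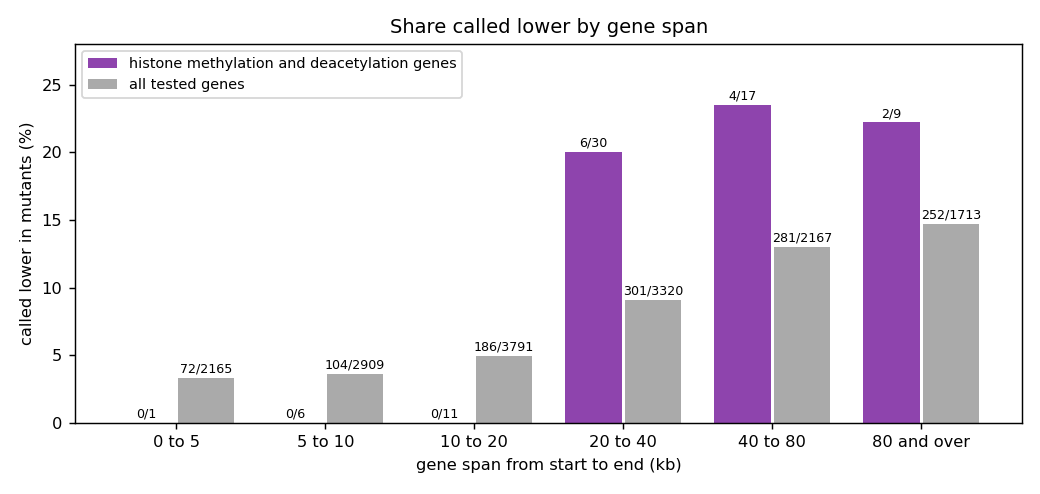
Share of genes called lower in mutants (vertical axis, %) by gene span in kb (horizontal axis), with purple bars for the histone methylation and deacetylation genes and grey bars for all tested genes, and the number called over the number tested above each bar. In both sets the share is higher from 20 kb upward, reaching 23.5% of 17 genes of the group and 13% of all tested genes at 40 to 80 kb.

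Other chromatin genes were taken from 11 lists of partners and related enzymes, of which 149 genes were tested. In these lists 9 genes (6.04%) were called lower and 3 (2.01%) higher, with a median log2 fold change of 0.03, close to the shares and the median of all tested genes. The partners that hold the methyltransferases in their complexes were mostly uncalled. Of 14 COMPASS partners 1 was lower (7.14%, against 7.44% of all tested genes). It was *cxxc1a*, which targets the complex to CpG islands, with 58 and 55 normalized counts in the mutants, against 111 and 215 in the wild types. Of 9 partners of Polycomb repressive complex 2, *jarid2a* was lower (37 and 26, against 116 and 70) and *aebp2* was higher (234 and 233, against 145 and 121). Each is a share of 11.1%, against 7.44% lower and 2.70% higher among all tested genes. No subunit of Polycomb repressive complex 1 was called among 17 by limma. Of the 17, 2 had an unadjusted limma p-value under 0.05, against 4654 of all 16065 tested genes.

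Among the enzymes that oppose or accompany HDACs, 1 of 15 histone acetyltransferase genes was lower (6.67%, against 7.44% of all tested genes). This was *kat2b*, the gene for the coactivator PCAF, with 25 and 20 normalized counts in the mutants, against 109 and 151 in the wild types. Its log2 fold change was -2.47 (limma adjusted p-value 0.011). Of 25 subunits of HDAC corepressor complexes 1 was lower (4%, against the same 7.44%). It was *gatad2b* of the NuRD complex, with 8 and 2, against 79 and 62. The 7 sirtuin genes, which encode the NAD-dependent deacetylases, all had positive log2 fold changes with a median of 0.37. Of all 16065 tested genes, 8391 had positive ones. Both mutants lay above both wild types in 3 of the 7 sirtuin genes (42.9%, against 30.5% of all tested genes). None of the 7 was called by limma (1 at an unadjusted p-value under 0.05, against 4654 of all 16065). Of 24 BET and SWI/SNF genes 2 were higher (8.33%, against 2.70% of all tested genes). Among them was *arid2*, which encodes a SWI/SNF subunit, with 490 and 482 in the mutants, against 339 and 260 in the wild types. Its log2 fold change was 0.71 (limma adjusted p-value 0.049). The muscle methyltransferase gene *smyd1b* was lower, with 270 and 339, against 574 and 630.

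Among the 11 chromatin lists, the DNA methylation enzymes had the most lower genes, 4 of 12 (33.3%, against 7.44% of all tested genes). *dnmt3ba* (53 and 51 normalized counts in the mutants, against 202 and 109 in the wild types) and *dnmt3aa* (25 and 29, against 71 and 75) encode de novo DNA methyltransferases, and *tet1* (5 and 11, against 30 and 59) encodes an enzyme that starts DNA demethylation. Both mutants lay below both wild types in 10 of the 12 genes, against 29.4% of all tested genes. For the maintenance genes *dnmt1* (341 and 277, against 862 and 415) and *uhrf1* (157 and 129, against 572 and 215), which were not called, the first wild type was again the highest ventricle.

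**Figure D5:**
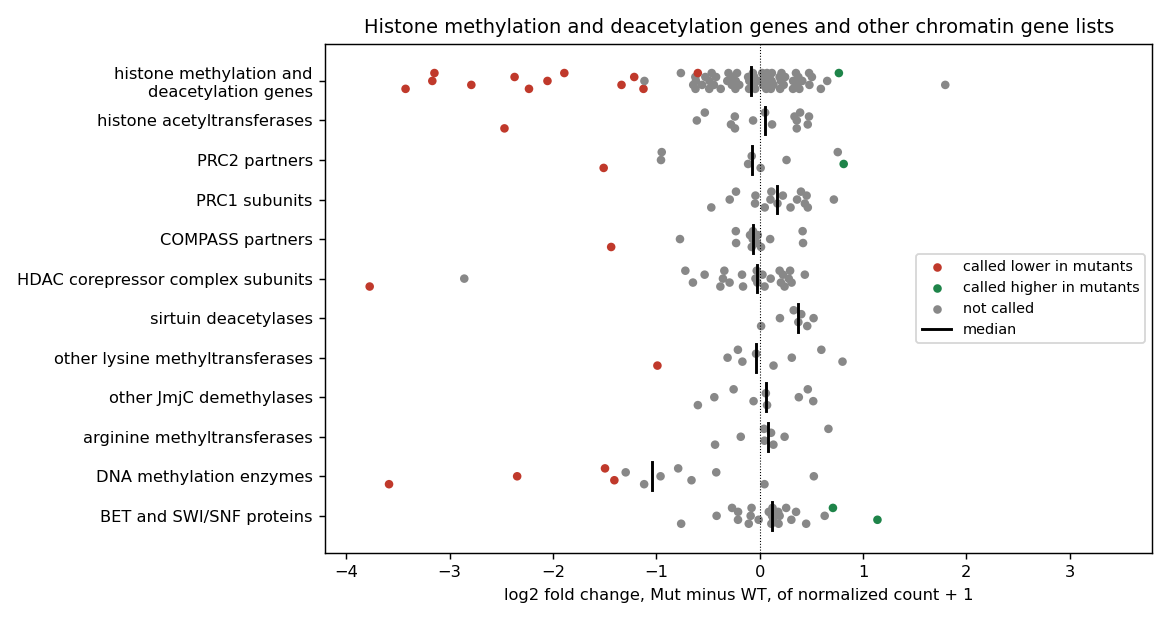
Log2 fold change (mutants minus wild types, horizontal axis, of normalized count + 1) of the 74 tested genes of the group in the top row and of the 11 other chromatin lists below, 1 point per gene, with black bars for the median. Red points were called lower and green points higher. The medians lie near 0 except for the DNA methylation enzymes, at -1.04, and the sirtuins, at 0.37.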

How the data were processed

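The authors trimmed the reads with Trimmomatic 0.39, aligned them to danRer11 (Ensembl release 104) with STAR 2.7.9a, counted them per gene with featureCounts 2.0.2 leaving out reads that fell on more than 1 gene or mapped to more than 1 place, and normalized them with DESeq2 1.30.0. The kit was stranded, but the strand setting of the counting is not given in the sources used here. What the authors deposited is a score for each gene in each ventricle, namely a count divided by a size factor and rounded, so count tests were not run. Limma 3.58.1 (R 4.3.3; linear model, mean-variance trend, prior degrees of freedom 5.33) was fitted to log2(normalized count + 1) of all genes with a mean of at least 10. Standard errors and 95% intervals are limma's, and the procedure was tested on simulated data. The simulated spread was set by the mean of each gene alone. The simulation therefore does not show how calls behave under the spread of these ventricles. Gene span is end minus start, since exon lengths were not used here. Named were the edited genes, the called genes of the group, those with an adjusted p-value from 0.05 to 0.06, the copies of called genes, in each role the gene with the highest mean, and called genes of the comparison lists. The genes *kdm4b*, *kdm6al*, *nsd1a*, *nsd2*, *kmt5ab*, *suv39h1b* and other uncalled genes with values were chosen after their values were seen. The group, the lists and the tests were chosen with earlier results of these data known. No gene, protein or promoter sequence was used. Some called genes are counted but not reported here by name. The alternatives were other pseudocounts (0.1 and 5), filters, variance models, scalings, a replicate block, fold-change limits, a correction for gene span and leaving out each ventricle. The replicate numbers mark different animals. P-values rest on the spread between these ventricles together with the variance information that limma shares across genes.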

Additional observations from a re-analysis of the deposited data

How the results depend on the processing

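The count of 12 lower genes was 6 without the mean-variance trend and 0 without the filter on low values, and it was 0 with each single ventricle left out, when no gene of the whole table passed (smallest limma adjusted p-value 0.123). The count of 1 higher gene was 2 with a pseudocount of 5, with robust empirical Bayes and with cyclic loess normalization, 3 after correction for gene span, 0 with the replicate block, 0 with a log2 fold change limit of 1, 0 without the filter, and 0 with each single ventricle left out. The median log2 fold change of the group, -0.08, was -0.14 after upper quartile scaling and after cyclic loess normalization and -0.0078 after correction for gene span, and it ran from -0.171 to -0.0553 with single ventricles left out. Over all tested genes, the counts of lower and higher genes were 1196 and 434, against 461 and 82 without the trend, 740 and 215 with the replicate block and 0 and 0 without the filter (5015 at an unadjusted p-value under 0.05, smallest adjusted p-value 0.0518). With a log2 fold change limit of 1 they were 1059 and 238. Deviations of same-numbered ventricles from their genotype means correlated at -0.066 across genes. This value shows no pairing by number over the genes as a whole, and pairing in part of them was not tested. With that block, 9 genes of the group were called lower, and *kmt2ba*, *setd5* and *kmt2e* were among those not called. No called gene of the group changed sign under the 19 alternatives, while 26 of the genes, all uncalled, changed sign at least once. In every called gene the genotypes did not overlap, so leaving out a ventricle could not turn its sign. Filters, variance models, fold-change limits and the replicate block leave the fold change itself as it is. The kept signs of the called genes therefore give no separate support. The largest standard errors among the tested genes of the group were those of *prdm8b* (0.76) and *hdac7b* (0.75), both genes with low values.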

Other observations

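Some chromatin lists showed no called gene. Of 8 protein arginine methyltransferase genes tested, which methylate arginine residues of histones and other proteins, limma called 0. Their median log2 fold change was 0.08, and 1 had an unadjusted limma p-value under 0.05, against 4654 of all 16065 tested genes. Of 9 JmjC genes outside the kdm names limma likewise called 0, with a median of 0.06. At an unadjusted limma p-value under 0.05 there were 2 of the 9, against the same 4654 of 16065. Among cell markers, 2 of 5 neutrophil genes tested were lower (40%, against 7.44% of all tested genes). *npsn* had 48 and 54 normalized counts in the mutants, against 152 and 170 in the wild types. The myeloperoxidase gene *mpx* had 74 and 63 in the mutants, against 266 and 155 in the wild types. The hemoglobin gene *hbba1* is listed on 2 rows, of which 1 was lower, with 137 and 121 in the mutants and 263 and 326 in the wild types, while the other had 200 and 229 in the mutants and 213 and 274 in the wild types. The transcript of *ttn.2*, a sarcomere gene, had 3659 and 4094 in the mutants and 5681 and 5793 in the wild types, a log2 fold change under the limit for a call (limma adjusted p-value 0.042), and the other cardiomyocyte markers were not called.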
